A study of Mus musculus with 4 samples.

Results

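Cytosolic ribosomal protein genes were read on 1-colour Affymetrix arrays in bulk normal muscle of mice labelled wild type, with 1 array for each of 4 samples. A gene was a member if a probe set was assigned to it alone and its symbol was Rpl or Rps with a number and an optional letter or l ending, or Rplp0, Rplp1, Rplp2 or Rpsa, leaving out pseudogenes and the Rps6k kinases. This gave 45 members of 12393 genes with such a probe set, 24 of the large and 21 of the small subunit. Of the 82 protein-coding genes in RefSeq (GRCm38.p6) whose symbols fit the rule, 44 were members, 28 had only probe sets shared with other genes and 10 had none in the annotation used. The remaining member, Rps4l, is not among those 82. Among the genes not analysed here for this reason are Rpl3, the partner of Rpl3l, and Rplp1.

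The mice were on a mixed 129S4/SvJae and C57BL/6 background and belonged to a single group. Age, sex, which muscle was taken and the number of animals are not given in the labels. The sample titles were skm4, skm5, nm7 and nm8, and the labels do not say what the prefixes skm and nm stand for. The prefix was treated as a possible batch, and differences below are skm minus nm on the log2 scale, with 2 samples on each side. In the series these muscles stand beside rhabdomyosarcomas and tumours labelled UPS, which were not analysed here.

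The cytosolic ribosome is built of a small subunit, which reads the mRNA, and a large subunit, which joins amino acids into protein. Most ribosomal proteins are encoded by single genes that are active in every cell, and their mRNAs begin with a 5′ terminal oligopyrimidine (TOP) tract, through which mTORC1 and the RNA-binding protein LARP1 control their translation. A few have paralogues with restricted expression, and Rpl3l, which takes the place of Rpl3 in ribosomes of skeletal muscle and heart, is the best known in this tissue.

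Start sites of the members are shown because the TOP tract is the sequence feature that ribosomal protein mRNAs share. A C at the annotated start followed by at least 4 bases that are C or T, read on the gene's own strand alone, was found at a start of 8 of the 39 members with a start in the RefSeq table (20.5%), against 3.01% of all 27025 genes in it. With the tract allowed to begin up to 5 bases either side of the start, the shares were 48.7% of members and 21.2% of all genes. Capitals mark the tract in the windows below, which run 15 bases either side of the start.

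Rps6, chr4:86857353-86857382, minus strand: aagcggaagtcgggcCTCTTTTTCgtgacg
Rps10, chr17:27635230-27635259, minus strand: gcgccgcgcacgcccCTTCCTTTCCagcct
Rps18, chr17:33955651-33955680, minus strand: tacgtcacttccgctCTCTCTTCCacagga
Rps27, chr3:90213634-90213663, minus strand: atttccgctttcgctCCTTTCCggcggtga
Rpl14, chr9:120571502-120571531, plus strand: gggcgggccctctctCTTCTCgctgagcgc
Rpl35, chr2:39005117-39005146, minus strand: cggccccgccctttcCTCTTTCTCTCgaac
Rpl38, chr11:114668565-114668594, plus strand: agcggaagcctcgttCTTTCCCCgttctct
Rplp2, chr7:141447636-141447665, plus strand: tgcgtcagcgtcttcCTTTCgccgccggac

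The 4 members below differed most between the prefixes, apart from Rps6 above and Rps25, and none of their windows has the tract at the annotated start. That says only that these letters are not at this position of the annotation. For Rpl27a the annotated start falls on a T inside a run of C and T.

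Rpl3l, upstream start, chr17:24727811-24727840, plus strand: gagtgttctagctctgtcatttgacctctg
Rpl3l, downstream start, chr17:24732670-24732699, plus strand: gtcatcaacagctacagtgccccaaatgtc
Rplp0, chr5:115559452-115559481, plus strand: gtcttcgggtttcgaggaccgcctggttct
Rpl27a, chr7:109519180-109519209, plus strand: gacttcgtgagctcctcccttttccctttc
Rpl39l, chr16:10170213-10170242, plus strand: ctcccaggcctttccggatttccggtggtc

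The 8 members with the tract at a start had a median difference of -0.07 and the 31 others with a start of -0.06, so the medians lay close together. Their ranges were -1.27 to 0.08 and -0.97 to 0.50. Within 5 bases of a start the tract was found in 19 members, so some of the 31 others have it nearby. The split follows the annotated position and cannot say whether having the tract goes with the difference.

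Most members read near the top of the array's range and varied little from sample to sample. Of the 45 members, 34 had a mean at or above 12 on the log2 scale, between 12.31 and 13.88. Of all 12393 genes, 471 had a mean at or above 12. Rpl22 read 11.81, and the remaining 10 lay between 6.35 and 9.71. Readings of different probe sets are not amounts of mRNA that can be set against each other, and robust multi-array averaging (RMA), which made the values, compresses differences near both ends of the range. Of the 10 members under 10, 8 also had probe sets shared with other genes, which were not used.

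The median SD over the 4 samples was 0.10 for the members, against 0.19 for all genes. Where the mean reached 12, it was 0.10 for the 34 members and 0.11 for all 471 genes, so the bright members varied about as much as other genes of that level. On the chosen probe sets, the steadiest was Rps18, a protein of the small subunit head. It read 12.89 in skm4, 12.94 in skm5, 12.93 in nm7 and 12.95 in nm8 (SD 0.03, n = 4). Rps24 and Rpl4, with SDs of 0.04 each, came next. Other probe sets at or above 12 varied more, with SDs of 0.18 and 0.10 for Rps18 and of 0.13, 0.12 and 0.11 for Rps24. Rps6, Rpl27a and Rpl39l varied most, with SDs of 0.78, 0.57 and 0.54, and all 3 read under 10. A range over 1 was found for these 3 members (6.67%) and for 5.98% of all genes.

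The 6 highest readings were those of Rps29, Rps28, Rps2, Rplp2, Rpl41 and Rpl38, with means of 13.88, 13.83, 13.81, 13.77, 13.71 and 13.71. None of the 6 had a difference beyond 0.21 in either direction. Rps29 and Rps28 are small proteins of the 40S subunit, Rps2 lines the path of the mRNA, and Rpl38 is known in mice for its part in the translation of Hox mRNAs. Rpl41, the smallest protein of the ribosome, read 13.67 and 13.60 in skm4 and skm5, against 13.79 and 13.78 in nm7 and nm8. On probe sets not ending in _x_at, a suffix that marks probes shared in part with other transcripts, its difference was 0.12 in place of -0.15, from a probe set that read far lower.

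Across the samples the members leaned together by small amounts. The median of the members' values, each taken from its gene's mean, was -0.08 in skm4, 0.01 in skm5, 0.04 in nm7 and 0.04 in nm8. The sample skm4 held the lowest value of 28 of the 45 members (62.2%), and skm5 held the highest value of 19. Of all 12393 genes, 3301 were lowest in skm4 and 2550 were highest in skm5. The same medians over all genes were 0.01, -0.02, -0.01 and 0.01. Large and small subunit genes had medians of -0.07 and -0.09 in skm4, and of 0.06 and 0.00 in skm5. Among the 34 members at or above 12, 20 were lowest in skm4 and 17 highest in skm5. Such counts were not made for other genes of that level.

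**Figure D1:**
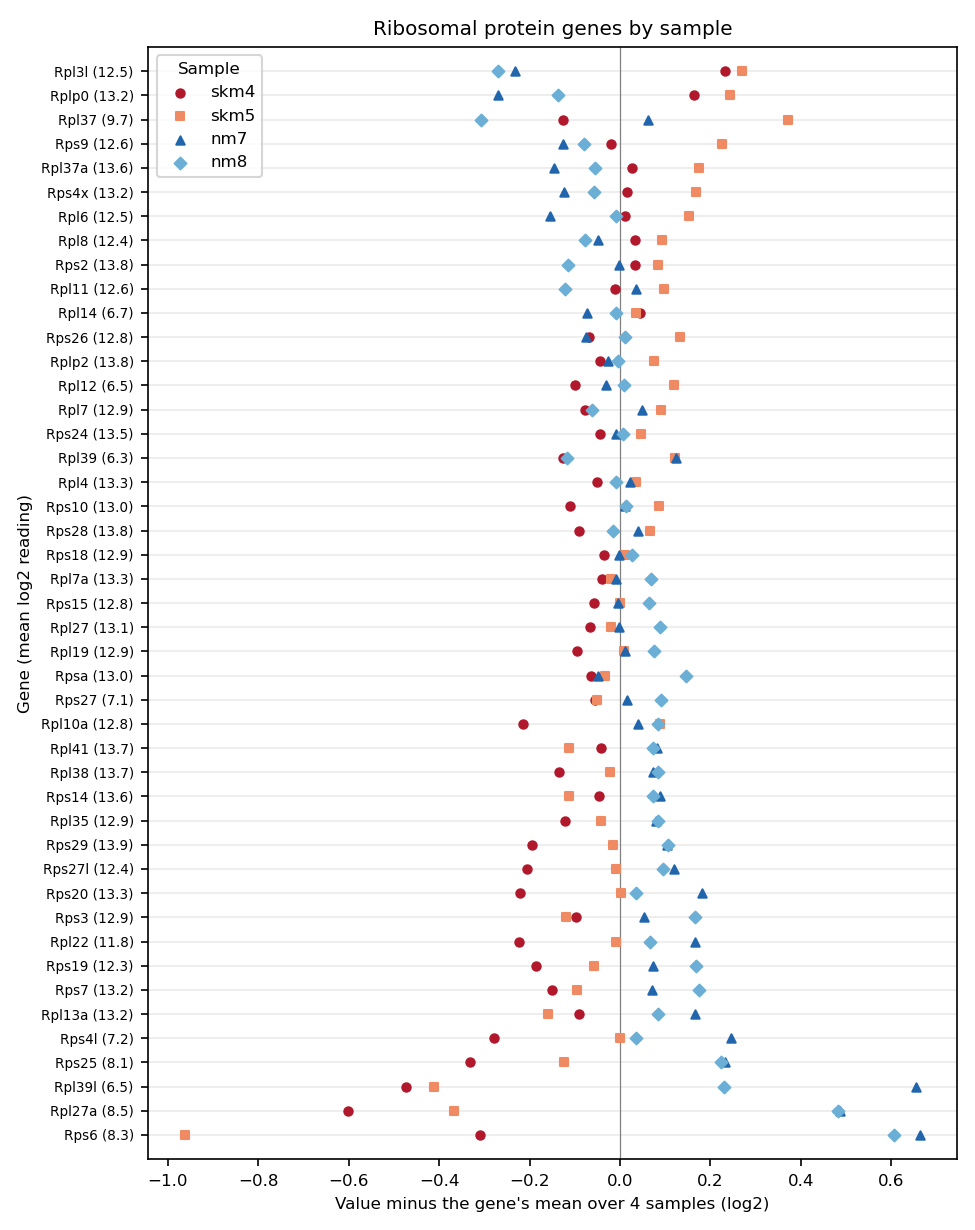
Each row is a ribosomal protein gene, ordered by its skm minus nm difference with the highest at the top. The horizontal axis is the log2 value in a sample minus the gene's mean over the 4 samples, red and orange marks stand for skm4 and skm5, dark and light blue marks for nm7 and nm8, and the number beside each name is the mean log2 reading. Rpl3l and Rplp0 stand at the top with both skm samples to the right, and Rps6, Rpl27a and Rpl39l at the bottom with both to the left.

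Between the prefixes, 0 of the 45 members passed limma's test at an adjusted p under 0.05 over all genes, where 4 of 12393 genes (0.0323%) did. At an unadjusted p under 0.05 there were 6 members (13.3%), 2 higher and 4 lower in skm, against 23.5% of all genes, 10.6% higher and 13.0% lower. The median difference was -0.06 for the members and 0.00 for all genes, with 16 members above and 29 below 0. Without skm5 the members' median was -0.11, and without skm4 it was -0.03. A total of 30 members had no overlap between the prefixes, 9 higher and 21 lower in skm, or 66.7% against a background of 54.4%, in which 25.8% were higher and 28.6% lower. Of the 34 members at or above 12, 22 (64.7%) had no overlap, against 57.3% of all genes of that level. Differences under 0.25 in size made up 82.2% of the members' and 59.1% of all genes' differences.

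The large subunit had a median difference of -0.01, with 11 members higher and 13 lower in skm. In the small subunit the median was -0.11, with 5 higher and 16 lower. Whether the subunits differ was not tested.

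With an intensity trend in limma's variance model, 5 of the 45 members (11.1%) passed at an adjusted p under 0.05, where 1110 of all genes (8.96%) did, 3.81% higher and 5.15% lower. They were Rpl3l and Rplp0, which rose in skm, and Rps6, Rpl27a and Rpl39l, which fell. Both that rose read above 12, and the 3 that fell read under 10. A dim probe set need not read all of a gene's mRNA. Rps18, for example, had a probe set of its own at 6.23 beside the one at 12.93. Whether the dim probe sets of Rps6 and Rpl27a stand for the bulk of their mRNA was not tested.

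**Figure D2:**
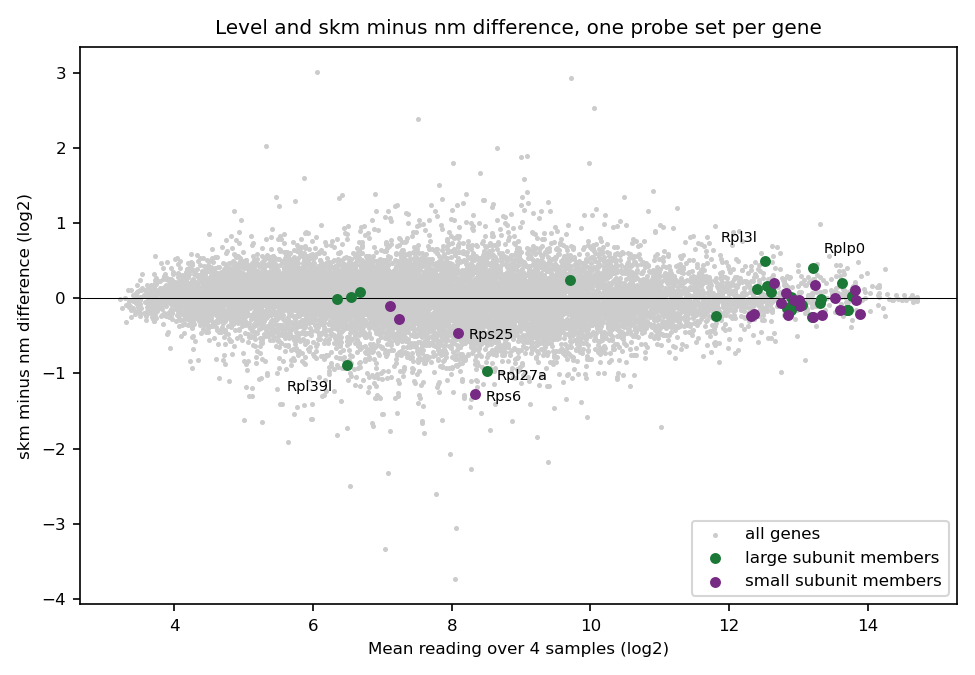
Each grey point is a gene, and green and purple points are members of the large and the small subunit. The horizontal axis is the mean log2 reading over the 4 samples and the vertical axis the skm minus nm difference. Of the 34 members at or above 12, only Rpl3l at 0.50 and Rplp0 at 0.41 lie outside -0.25 to 0.21, and the members under 10 reach down to -1.27.

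Rpl3l, the striated muscle paralogue of Rpl3, had the highest difference of all members. It read 12.74 in skm4 and 12.78 in skm5, against 12.28 in nm7 and 12.24 in nm8. The prefixes did not overlap, and the samples within a prefix lay within 0.04 of each other. The difference was 0.50 ± 0.12 (SE, n = 2 per prefix), or 1.42-fold, with a 95% confidence interval of 0.21 to 0.79. Its adjusted p in limma was 0.090, and 0.014 with an intensity trend. Leaving out any single sample kept it between 0.48 and 0.52. Probe sets of Rpl3 itself are shared with other genes, so the balance of the pair was not measured.

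Rplp0, the protein at the base of the stalk that recruits elongation factors, followed. It read 13.38 in skm4 and 13.46 in skm5, against 12.94 in nm7 and 13.07 in nm8. The groups did not overlap. The difference was 0.41 ± 0.12 (1.33-fold, 95% confidence interval 0.10 to 0.72), with an adjusted p of 0.137 in limma and of 0.027 with an intensity trend. Rplp2, which sits on the stalk that Rplp0 anchors, differed by 0.03 ± 0.12. Its values were 13.73 and 13.85 in skm4 and skm5, against 13.74 and 13.77 in nm7 and nm8, and they overlapped.

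Rps6, the substrate of the S6 kinases downstream of mTORC1, had the lowest difference. It read 8.03 in skm4 and 7.37 in skm5, against 9.00 in nm7 and 8.94 in nm8. Both skm samples lay below both nm samples, and skm5 lay lowest. The difference was -1.27 ± 0.23 (2.41-fold lower, 95% confidence interval -1.84 to -0.70), with an adjusted p of 0.066 in limma and of 0.016 with an intensity trend. It ran from -1.60 without skm4 to -0.94 without skm5, and was -0.84 with the mean of both probe sets. The other probe set of Rps6 alone differed by -0.40, from a mean of 6.42, and its 9 probe sets shared with other genes were not used.

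Rpl27a, a large subunit protein, read 7.90 in skm4 and 8.14 in skm5, against 8.99 in both nm7 and nm8. The difference was -0.97 ± 0.13 (1.96-fold lower), with an adjusted p of 0.051 in limma, the lowest of any member. It was 0.013 with an intensity trend, and the difference stayed between -1.09 and -0.85 with any single sample left out. The other probe set of Rpl27a read 4.26 and 4.80 in skm4 and skm5, against 4.52 and 4.29 in nm7 and nm8, not far above the probe sets for bacterial TrpnX, which gave 3.40 to 4.05. With the mean of both probe sets the difference of Rpl27a was -0.42.

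Rps25, which takes part in internal initiation on some viral and cellular mRNAs, read 7.76 and 7.97 in skm4 and skm5, against 8.32 and 8.31 in nm7 and nm8. Its difference was -0.46 ± 0.13, with an adjusted p of 0.124 in limma and of 0.102 with an intensity trend. Rpl37 was the only member under 10 with a difference above 0.2, at 0.25 ± 0.22, and its values overlapped. It read 9.59 in skm4, 10.08 in skm5, 9.77 in nm7 and 9.40 in nm8, and the difference was -0.0023 without skm5. Among the other members under 10, Rpl14 differed by 0.08, Rpl12 by 0.02 and Rpl39 by -0.01, each with a standard error of 0.12 to 0.15.

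**Figure D3:**
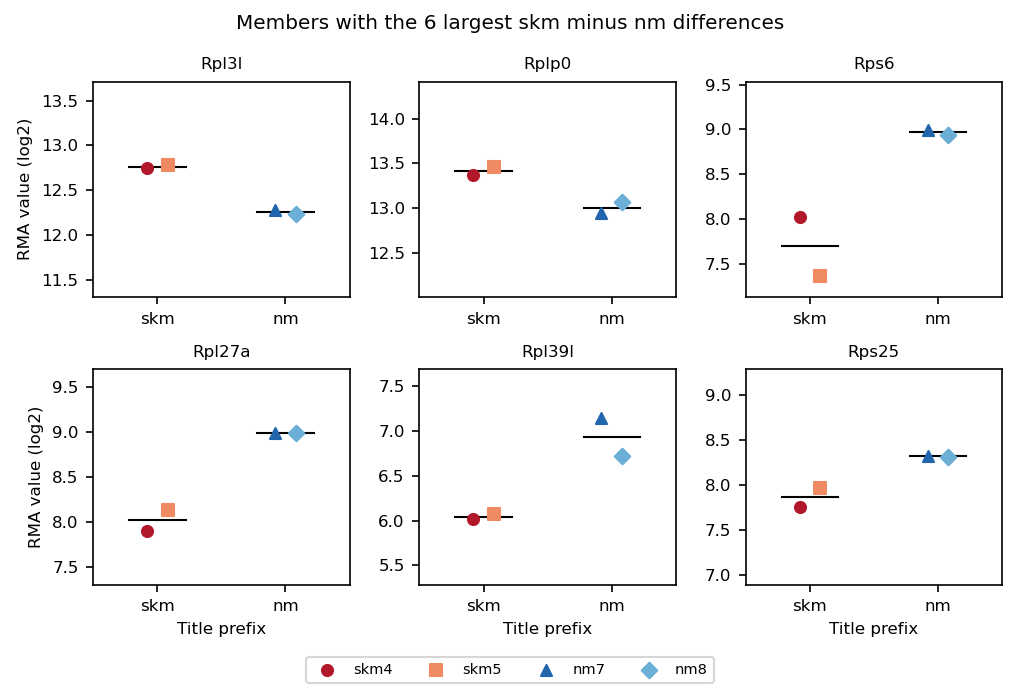
Points are the log2 RMA values of single samples for the members with the 6 largest differences by size, with skm samples on the left and nm samples on the right of each panel and a bar at the mean of each pair. Every vertical axis spans 2.4 on the log2 scale. In all 6 panels the prefixes do not overlap, with skm above nm for Rpl3l and Rplp0 and below nm for Rps6, Rpl27a, Rpl39l and Rps25. The genes were picked by the size of this difference, which favours such a gap, and 54.4% of all genes had no overlap.

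Rpl39l, the paralogue of Rpl39 that is best known from mouse testis, read 6.01 in skm4 and 6.07 in skm5, against 7.14 in nm7 and 6.72 in nm8. Its difference was -0.89 ± 0.17 (1.85-fold lower), with an adjusted p of 0.071 in limma and of 0.043 with an intensity trend. Rpl39, which lies in the exit tunnel of the large subunit, read 6.22 and 6.47 in skm4 and skm5, against 6.47 and 6.23 in nm7 and nm8. Its 95% confidence interval was -0.39 to 0.38. Rps27l, a paralogue of Rps27 that p53 induces, differed by -0.21 ± 0.13, and Rps27 by -0.11 ± 0.12. Rps4l, a paralogue of the X-linked Rps4x, differed by -0.28 ± 0.16, and Rps4x by 0.18 ± 0.12. Whether the partners of a pair differ from each other was not tested, and none of these 6 genes passed limma's test over all genes without the trend.

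Among the other bright members, 32 genes beside Rpl3l and Rplp0, the differences ran from -0.25 to 0.21, which is at most 1.19-fold. Lowest were Rpl13a at -0.25, a protein also known from translational silencing in human monocytes, Rps7 at -0.25, Rps19 at -0.24, the gene most often mutated in human Diamond-Blackfan anaemia, Rps3 and Rps20 at -0.22 each, and Rps27l and Rps29 at -0.21 each. Without skm4, Rps20 stood at -0.11, Rps27l at -0.12 and Rps29 at -0.12. Other probe sets at or above 12 differed by 0.002 and -0.17 for Rps29 and by 0.02 for Rps20. Those of Rpl13a and Rps7 differed by -0.33 and -0.18, and those of Rps27l by -0.14 and -0.11. Rpl13a read 13.11 and 13.04 in skm4 and skm5, against 13.36 and 13.28 in nm7 and nm8. Rps7 read 13.06 and 13.12, against 13.29 and 13.39 in the nm samples. For the chosen probe sets of all these low genes the prefixes did not overlap, but the intervals of the differences reach 0, as for Rps19 at -0.55 to 0.07. The genes were picked as the lowest, and 57.3% of all genes at or above 12 had no overlap. Just under 12, Rpl22, which is needed for T cell development in mice, differed by -0.23 ± 0.13, and by -0.13 without skm4.

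On the high side, Rps9 differed by 0.21 ± 0.14, Rpl37a by 0.20 ± 0.13, Rps4x by 0.18, Rpl6 by 0.16 ± 0.13, Rpl8 by 0.13 ± 0.12 and Rps2 by 0.12 ± 0.12. Without skm5, Rps9 stood at 0.08, Rpl37a at 0.13, Rps4x at 0.11 and Rpl6 at 0.09, and without nm8 Rps2 stood at 0.06. Rpl37a read 13.65 and 13.80 in skm4 and skm5, against 13.48 and 13.57 in nm7 and nm8. Another probe set of Rpl37a, with a mean of 13.21, differed by -0.01. Rps2 read 13.84 and 13.89, against 13.81 and 13.69 in the nm samples. Rpsa, a 40S protein also known as the laminin receptor precursor, read 12.96 in skm4, 12.99 in skm5, 12.98 in nm7 and 13.17 in nm8, so nm8 stood apart from the other 3. Rpl10a read 12.63 in skm4, 12.93 in skm5, 12.88 in nm7 and 12.92 in nm8, with skm4 apart from the others. The remaining bright members lay between Rpl35 and Rps14, at -0.16 each, and Rpl11, which can bind Mdm2 and so stabilise p53, at 0.09. Rps3a1, a small subunit gene whose symbol falls outside the rule, differed by -0.19 ± 0.14.

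Probe sets of a member did not always go the same way. The 45 members had 96 probe sets of their own, and 22 members had several. All probe sets of a gene had differences of 1 sign in 8 of these and of both signs in 14, but in 0 genes did they differ by more than 0.5 each way. In some of the 14 only dim probe sets went the other way, as for Rpsa with one at 4.84. In others, such as Rpl35, probe sets at or above 12 had both signs. The 61 probe sets with a mean at or above 12 ran from -0.33 to 0.50, with 42 lower in skm. The 35 below ran from -3.11 to 0.57.

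Rps9, a small subunit protein, had the widest split. The probe set that stood for it read 12.63 and 12.87 in skm4 and skm5, against 12.52 and 12.57 in nm7 and nm8. A second, ending in _x_at, read 6.64 and 7.20 in skm4 and skm5, against 10.70 and 9.36 in nm7 and nm8, a difference of -3.11. The remaining probe set differed by 0.25, from a mean of 5.24. With the mean of all 3, the difference of Rps9 was -0.89 in place of 0.21.

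**Figure D4:**
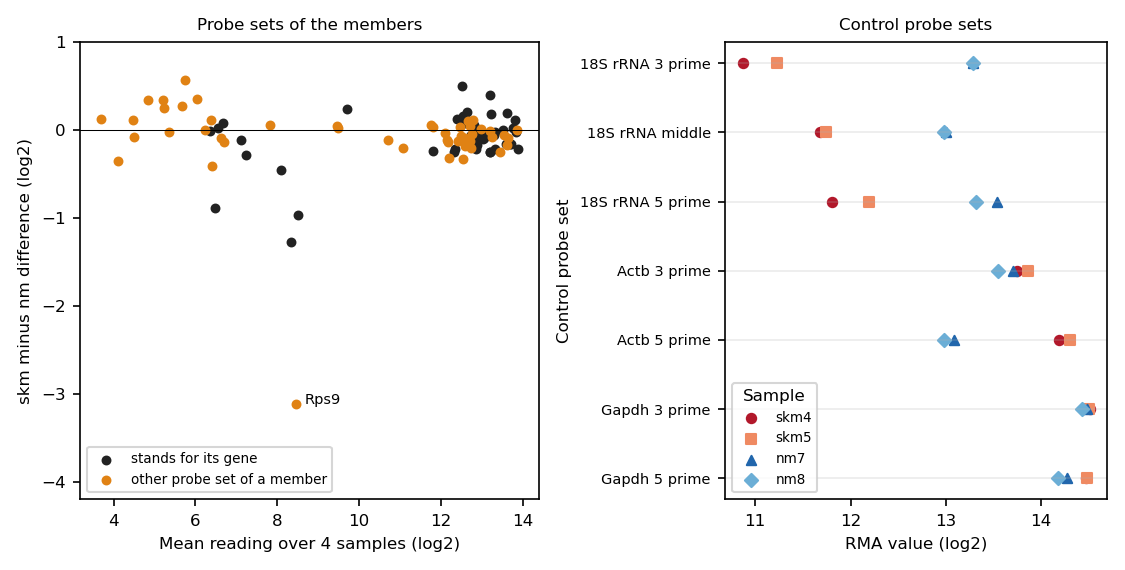
On the left, each point is a probe set of a member, with its mean log2 reading on the horizontal and its skm minus nm difference on the vertical axis, black where it stands for its gene and orange otherwise. The probe set of Rps9 at -3.11 lies below all others. On the right are the log2 values of control probe sets in the 4 samples, where the 18S rRNA sets lie lower in both skm samples and the Actb set at the 5′ end lies higher.

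Several values moved with the prefix alongside these genes, and their part in the differences was not tested. The 18S rRNA control probe set nearest the 3′ end read 10.87 and 11.23 in skm4 and skm5, against 13.28 and 13.29 in nm7 and nm8. The other 18S sets differed by -1.28 and -1.43. The 3′ minus 5′ value of Actb, a measure of how complete the labelled RNA was, was -0.45 and -0.44 in skm4 and skm5, against 0.62 and 0.56 in nm7 and nm8. For Gapdh it was 0.04 and 0.02 in skm4 and skm5, against 0.21 and 0.25 in nm7 and nm8.

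Markers of some cell types moved with the samples too. All 10 measured of 12 lymphocyte markers were lower in skm without overlap, and their summed linear level was 826 and 1871 in skm4 and skm5, against 3889 and 4508 in nm7 and nm8. Over all genes, 28.6% were lower in skm without overlap. The lowest mean of a lymphocyte marker was 5.87, where the TrpnX sets gave 3.40 to 4.05. A mean does not show how near to that level single skm samples came. Skin markers were highest in skm5, where 5 keratinocyte genes summed to 1979, against 614 in skm4, 580 in nm7 and 677 in nm8. The 10 skeletal muscle markers, such as Acta1 and Ckm, had means of 12.84 to 14.71, and a median difference of 0.00. Median differences of the other marker lists were -0.21 for macrophages, -0.47 for adipocytes, -0.01 for endothelium, -0.11 for fibroblasts, 0.36 for erythroid cells and 0.87 for keratinocytes. The 5 endothelial markers went both ways, from -0.58 to 1.31, 3 of them past the threshold with an intensity trend, and summed to 3974 and 4227 in skm4 and skm5, against 3302 and 3237 in nm7 and nm8. The 4 measured adipocyte markers ran from -2.26 to -0.01, with 2 past the threshold in the same fit. Over all genes, 8.96% passed in that fit. In whole tissue, fewer cells of a type and less RNA per cell cannot be told apart.

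In the rest of the translation machinery, limma called no gene over all genes without the trend. The counts below stand beside 23.5% of all genes with an unadjusted p under 0.05 and 8.96% past the threshold with an intensity trend. Of 33 measured initiation factors, 0 passed and 5 had an unadjusted p under 0.05, with a median difference of -0.05. With an intensity trend, Eif3b, a subunit of the eIF3 scaffold, rose by 0.62 ± 0.14, and Eif1a, which helps scan for the start codon, Eif5b, which joins the subunits, and Eif5, the GTPase activator of start codon choice, fell by 0.76, 0.48 and 0.37. Of 11 genes listed with the elongation and release factors, 0 passed and 2 had an unadjusted p under 0.05. Eef1a1 differed by 0.02 ± 0.15 and Eef1a2, its form in muscle and neurons, by -0.05 ± 0.13, while Eef2, which moves the ribosome along, differed by 0.21 ± 0.12. The kinase Eef2k, which inhibits Eef2, stood at 0.45 ± 0.14, Eef1d at 0.30 and Eef1e1 at -0.25, and none of the 11 passed with the trend.

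Of 42 measured ribosome assembly factors, 0 passed and 12 had an unadjusted p under 0.05, 3 higher and 9 lower, with a median difference of -0.08. Over all genes the share with such a p was 23.5%, with 10.6% higher and 13.0% lower. With an intensity trend 5 passed, 1 higher and 4 lower, against 8.96% of all genes. Of these 5, Heatr1, which acts in rRNA synthesis, Wdr75 of the small subunit processome and Gar1, a protein of box H/ACA particles, fell by 0.59, 0.57 and 0.50. Lsg1, a GTPase of late large subunit assembly, differed by 0.67 ± 0.34 and overlapped between the prefixes.

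Of 17 non-ribosomal genes with TOP mRNAs, 0 passed and 2 had an unadjusted p under 0.05, with a median difference of 0.02. Over all genes the share with such a p was 23.5%. Naca, a chaperone of nascent chains, differed by -0.30 ± 0.12, Eif3e by -0.29 ± 0.13 and Btf3, the partner of Naca, by 0.28 ± 0.12. Fau, which encodes the small subunit protein S30 fused to a ubiquitin-like protein, differed by -0.14 ± 0.13. The paralogues Rpl7l1 and Rpl22l1, whose symbols fall outside the rule, differed by -0.33 ± 0.14 and -0.26 ± 0.23.

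Of 21 regulators of mTORC1 and ribosome synthesis, 0 passed and 9 had an unadjusted p under 0.05, 6 higher and 3 lower. Over all genes the share with such a p was 23.5%, with 10.6% higher and 13.0% lower. With an intensity trend 6 passed, 4 higher and 2 lower, against 8.96% of all genes. Rps6kb2, an S6 kinase, rose in skm, at 8.72 and 8.33 in skm4 and skm5 against 7.35 and 7.07 in nm7 and nm8, a difference of 1.31 ± 0.18. Ddit4, an inhibitor of mTORC1, rose by 2.52 ± 0.41, Myc, an activator of ribosome synthesis, fell by 0.78 ± 0.16 and Rps6ka3, another kinase of Rps6, fell by 0.61 ± 0.13 in the same fit. Mtor differed by 0.06 ± 0.12 and Larp1 by -0.26 ± 0.12, neither of them past the threshold with the trend.

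Mitochondrial ribosomal protein genes, taken by symbol as Mrpl or Mrps with a number, were the closest comparison. They are named for the separate ribosome inside mitochondria, and a symbol alone does not show that the product is part of it. Of 74 measured genes, 0 passed and 14 had an unadjusted p under 0.05, 12 higher and 2 lower in skm. Over all genes the share with such a p was 23.5%, with 10.6% higher and 13.0% lower. For the 74 genes the rest is given next. Their median difference was 0.07, with 49 above and 25 below 0, against 16 above and 29 below for the cytosolic genes. With an intensity trend 7 passed, 6 higher and 1 lower, against 8.96% of all genes. Mrps5 rose by 0.81 ± 0.13, Mrpl37 by 0.73 ± 0.12 and Mrps36 by 0.50 ± 0.14, and Mrps6 fell by 0.57 ± 0.13. Whether the families differ was not tested.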

How the data were processed

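Per the submitters' processing notes, the authors used Expression Console 1.1 of Affymetrix to make the deposited log2 RMA values, 1 per probe set. The notes name no scale, and log2 was read from the range, 2.80 to 14.76. Per the labels' protocols, RNA was isolated by either of 2 methods, not given by sample. The sources used here do not say which other arrays were normalized with these 4.

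Of 22690 probe sets, 64 controls were left out. Those of 1 gene in the platform annotation (20380) were named through Entrez identifiers, and the probe set with the highest mean stood for its gene. Members and lists were chosen with earlier results of these data known. The skm minus nm difference was fitted by limma, version 3.58.1 under R 4.3.3 (lmFit, then eBayes, 2-sided, 2 residual and 3.51 prior degrees of freedom), with p-values adjusted over all genes after Benjamini and Hochberg and called under 0.05, and the script was tested on simulated data. Errors are standard errors of the fit without a trend unless named SD. No label says that each sample is its own animal. The p-values thus reflect the spread among the samples at hand, which may be technical, and precision is limited by how few arrays there are. The prior also draws each gene's variance towards a value common to all genes, so a standard error does not measure that gene's spread alone.

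Genes named were the members with the 6 highest and 6 lowest means, the 10 largest SDs, the 8 highest and 8 lowest differences, paralogue pairs, Rplp0, Rplp2, Rpsa and Rps6, and in each other list up to 4 by size of difference, with Eef1a1, Eef1a2, Eef2, Fau, Rpl22l1, Rpl7l1, Larp1, Mtor and Myc. Rps3a1, Rps3, Rps18, Rps24, Rpl4, Rpl10a, Rpl11, Rpl35 and Rps14 were added after their values were seen. Alternatives were quantile normalization, centring on array medians, the mean of a gene's probe sets, leaving out _x_at and _s_at probe sets, a filter at the median level, an intensity trend, other thresholds, the range in place of the SD, leaving out paralogues ending in l and each sample left out. Sequences are from RefSeq, GRCm38.p6.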

Additional observations from a re-analysis of the deposited data

Results flagged for a closer look

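In 2 members, 1 sample stood far from the others. Rpsa, the 40S protein also known as the laminin receptor precursor, read 12.96 in skm4, 12.99 in skm5, 12.98 in nm7 and 13.17 in nm8, and the gap to nm8 was 0.845 of the whole range, above Dixon's critical value for 4 samples. Rpl10a, a large subunit protein, read 12.63 in skm4, 12.93 in skm5, 12.88 in nm7 and 12.92 in nm8, where the gap to skm4 was 0.837 of the range. Chance flags about 1 in 20 groups, and over all genes 4.21% passed this value. The difference of Rpsa was -0.10 with all 4 samples and 0.00065 without nm8, and it was 0.12 with the mean of its probe sets.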

How the results depend on the processing

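Of the 45 members, 0 passed limma's test over all genes, and 0 passed with any single sample left out. The number was 1 with quantile normalization, 1 without _x_at and _s_at probe sets, 1 without _x_at probe sets (40 members left in both), 5 under a filter at the median level (39 left), 5 given an intensity trend, 4 at an adjusted p under 0.10 and 6 at an unadjusted p under 0.05. The 5 under the filter were those of the trend, but with Rps25 in place of Rpl39l. Over all genes, 4 passed, against 188 with quantile normalization, 92 as probe set means, 142 without _x_at and _s_at and 143 without _x_at probe sets, 1026 under the filter, 1110 given the trend, 995 at an adjusted p under 0.10 (8.03%) and 2918 at an unadjusted p under 0.05 (23.5%), and with a sample left out 0 to 15. In an alternative added after the data were seen, 2 of the 34 members at or above 12 passed with the trend, as did 51 of all 471 genes of that level (10.8%). With 1 sample left out, the lone sample of its prefix was assumed to vary like the others. The members' median difference ran from -0.11 to -0.03, their median SD from 0.09 to 0.11 and the number without overlap from 32 to 42, against 30 with all samples, while the share of all genes without overlap was 76.1% to 79.5%, against 54.4%, since 1 side then held a single sample. The median range was 0.22 in place of an SD of 0.10. Of 316 values of single members under the alternatives, 14 had the other sign. By gene, it turned for Rpl37 (-0.0023 without skm5, in a range up to 0.49), Rpl41 (0.12 without _x_at, with or without _s_at probe sets), Rps9 (-0.89 with the mean of probe sets) and Rpsa (0.12 with the mean of probe sets, 0.00065 without nm8), and, from differences of at most 0.03 in size, for Rpl12, Rpl39, Rplp2 and Rps28. The median difference of initiation factors, -0.05, was -0.023 with centring, -0.027 as probe set means and 0.017 without _x_at, with or without _s_at probe sets, where 1 passed, and ran from -0.047 to -0.0056 with a sample left out. That of elongation factors, -0.05, was 0.0061 as probe set means and -0.049 to 0.074 with a sample left out. With a sample left out, assembly factors ran from -0.15 to -0.05, TOP mRNA genes from -0.13 to 0.10, mitochondrial ribosomal proteins from 0.06 to 0.11 and mTORC1 regulators from 0.018 to 0.19. Of the regulators, 2 passed with quantile normalization and 1 without _x_at, with or without _s_at probe sets, and of mitochondrial ribosomal proteins 1 passed with quantile normalization. The cause of these changes was not tested. No paired analysis was possible because the samples form 1 group.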
